A study of Homo sapiens with 3 samples.

Results

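The genes described here encode proteins of the spliceosome, chosen by name as all rows of the SF3A and SF3B, SNRP, PRPF and numbered LSM families on the main chromosomes, without SNRPN and without hyphenated names. The rule found 47 of 39320 gene rows, of which 46 are genes placed in 9 roles and 1, SNRPD2P2, is a pseudogene. RNA was sequenced in 3 libraries of the human liver cancer line HepG2, an established cell line. All are labelled as wild-type, no treatment is named in the labels, and they form 1 condition. The deposited tables give each gene a TPM, a share of all transcripts in the library set to a fixed total and scaled for transcript length and library size. Levels of different genes within a library can thus be set side by side. Between libraries, such a share also depends on the levels of the other genes. Read counts are not given, and the deposited coverage, the mean depth per base, is the measure of depth used here. The labels do not say whether the libraries came from separate cultures, so the spread between them may be technical.

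The spliceosome removes introns from pre-mRNA and is built from small nuclear ribonucleoproteins (snRNPs), each an snRNA bound by proteins. The U1, U2, U4 and U5 snRNAs carry a ring of Sm proteins, while U6 carries the related ring of Lsm2 to Lsm8. U1 marks the 5′ splice site, U2 with its SF3A and SF3B proteins binds the branch point, and the U4/U6.U5 tri-snRNP, which holds many of the PRPF proteins, brings the parts of the active site.

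By TPM, replicate 1 stands apart from the others in a way that touches the results. Of the 8419 rows averaging 10 TPM or more, 62.5% were highest in replicate 1. With median-of-ratios scaling, which equalises the typical gene, this share was 38.0%. The labelled cell type is not borne out by liver products. All 8 genes of a list of liver cell products, among them ALB, APOA1 and AFP, were below 1 TPM in every library, and TTR was the highest of them with a mean of 0.118 TPM. KRT8 and KRT18, the keratins of simple epithelia, had means of 2609.6 and 2017 TPM.

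Nearly all members were well expressed. At least 10 TPM in every library was reached by 43 of 47 members, against 20.7% of all rows, and by 42 of the 45 members with a RefSeq protein-coding entry, against 40.4% of protein-coding rows. The median member had 81.8, 86.3 and 85.3 TPM in replicates 1, 2 and 3, or 84.5 ± 2.32 TPM (SD, n = 3). The median of the 11312 protein-coding genes averaging 1 TPM or more was 19.5 TPM, and 41 members lay above it. At least 100 TPM in every library was reached by 21 members. Together the members made up 0.540%, 0.556% and 0.564% of all TPM in replicates 1, 2 and 3.

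The rule used names alone, so the sequence before the start sites is a feature that it did not use. RefSeq start sites in GRCh38.p14 were found for 37 members, and the 250 bases before the first listed start of each gene were searched on both strands for 5 motifs, none of which contains another. The ETS motif, spelled CCGGAAG, was found in 16 of the 37 members, or 43.2%. It was found in 11.8% of 15842 protein-coding genes, in 19.1% of the 6536 of these averaging 10 TPM or more and in 8.82% of all 27305 genes with a start site. By role, the letters were present in 3 of 3 SF3A genes, 3 of 5 SF3B genes, 4 of 6 Sm ring genes and 3 of 4 U1 and U2 genes with a start site, in 2 of 5 U5 and tri-snRNP PRPF genes and in 1 of 6 Lsm ring genes. They were in 0 of 4 other PRPF genes, 0 of 2 U7 Lsm genes and 0 of 2 other Lsm genes. When any listed start was accepted, 17 of 37 members and 14.0% of protein-coding genes held it. The other motifs differed less. The GC box (GGGCGG) was in 56.8% of members and 56.0% of protein-coding genes, and the CCAAT box (CCAAT) in 43.2% and 34.5%. The NRF1 motif (GCATGCGC) was in 5.41% and 3.70%, and the TATA box (TATAAA) in 1 member, SNRPC, or 2.70%, and 9.23%. These are matches of letters, with no measurement of binding.

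The matches in the Sm ring and SF3 genes are printed because they are the sequence feature that these genes shared most often. Each line gives 27 bases of the gene's own strand, 5′ to 3′, from RefSeq GRCh38.p14, with the motif or its reverse complement in capitals. All 9 printed motifs lie from 3 to 62 bases before the first start that RefSeq lists for the gene. SF3B2 holds 2 matches in its window and SF3B6 holds 3, and a single match is printed for each gene. The deposited rows begin further upstream for SNRPB, SNRPG, SF3A3 and SF3B2. In these 4 genes the printed motif lies inside the row of the gene, and in the other 5 it lies outside. SNRPE also holds the motif, at the far end of its window, and is not printed.
SNRPB, chr20:2470814-2470840, minus strand: gtgagctggaCCGGAAGtaggtttcta
SNRPD2, chr19:45692363-45692389, minus strand: gtccatgcccCTTCCGGatgtaggcag
SNRPG, chr2:70293492-70293518, minus strand: ttcatttcttCTTCCGGtccgaggtcg
SF3A1, chr22:30356927-30356953, minus strand: ggggacggtcCCGGAAGtgcgccagtc
SF3A2, chr19:2236805-2236831, plus strand: ctcatttgccCCGGAAGtgctttcttt
SF3A3, chr1:37990074-37990100, minus strand: tcccggggcaCTTCCGGcactcgcgga
SF3B2, chr11:66052340-66052366, plus strand: ctggccccagCTTCCGGgttggtcgcg
SF3B4, chr1:149927813-149927839, minus strand: cgtcttcgccCCGGAAGtggaagtcgt
SF3B6, chr2:24076329-24076355, minus strand: gctgtaacagCTTCCGGcgggtcctgg

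**Figure D1:**
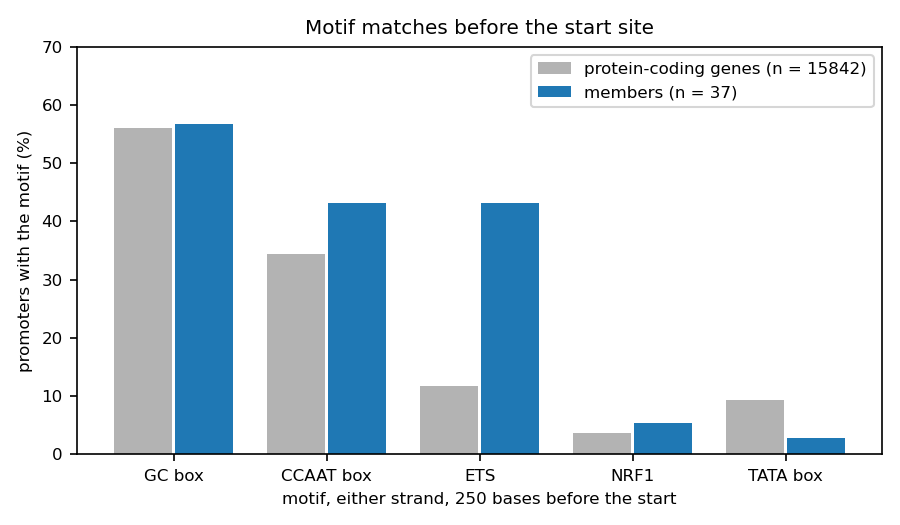
Percent of genes with each motif on either strand in the 250 bases before the first listed start, for 15842 protein-coding genes (grey) and 37 members (blue). The ETS motif is at 43.2% of members and 11.8% of protein-coding genes, and the GC box is at nearly the same share in both.

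The Sm ring held the highest levels. It has 7 proteins that assemble around the snRNA in equal numbers, yet their RNA levels spanned a wide range. SNRPB, which encodes SmB and SmB′ (GRCh38 chr20:2461635-2470853, minus strand), had 443, 465 and 470 TPM in replicates 1, 2 and 3. SNRPD1, which encodes SmD1 (chr18:21612269-21633520, plus strand), had 41.2, 39.0 and 43.3 TPM. Within a library the highest Sm level was 11.2 ± 0.662 times the lowest (SD, n = 3). The match to the ETS letters in SNRPB is printed above, with those in SNRPD2 and SNRPG. SNRPD2 had 379, 438 and 452 TPM, and its range over the libraries overlapped that of SNRPB, although SNRPB was higher in each of the 3 libraries. SNRPG had 307, 357 and 369 TPM. SNRPF had 298, 352 and 357 TPM, so that SNRPG and SNRPF also overlapped. A gap followed, with SNRPE at 117, 138 and 145 TPM and SNRPD3 at 101, 104 and 103 TPM. SmD1, at the bottom, and SmD3, next to it, had the longest canonical transcripts of the ring in GENCODE v44, with 4858 and 3466 nt, against 452 to 1560 nt in the other 5 genes. Copies also differ, since GENCODE v44 lists 20 pseudogenes named after SNRPG, 10 after SNRPE and 0 after SNRPD1. The pseudogene row in the tables, SNRPD2P2, was listed at 0 in all 3 libraries. The part of transcript length and of pseudogene reads in these levels was not tested.

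**Figure D2:**
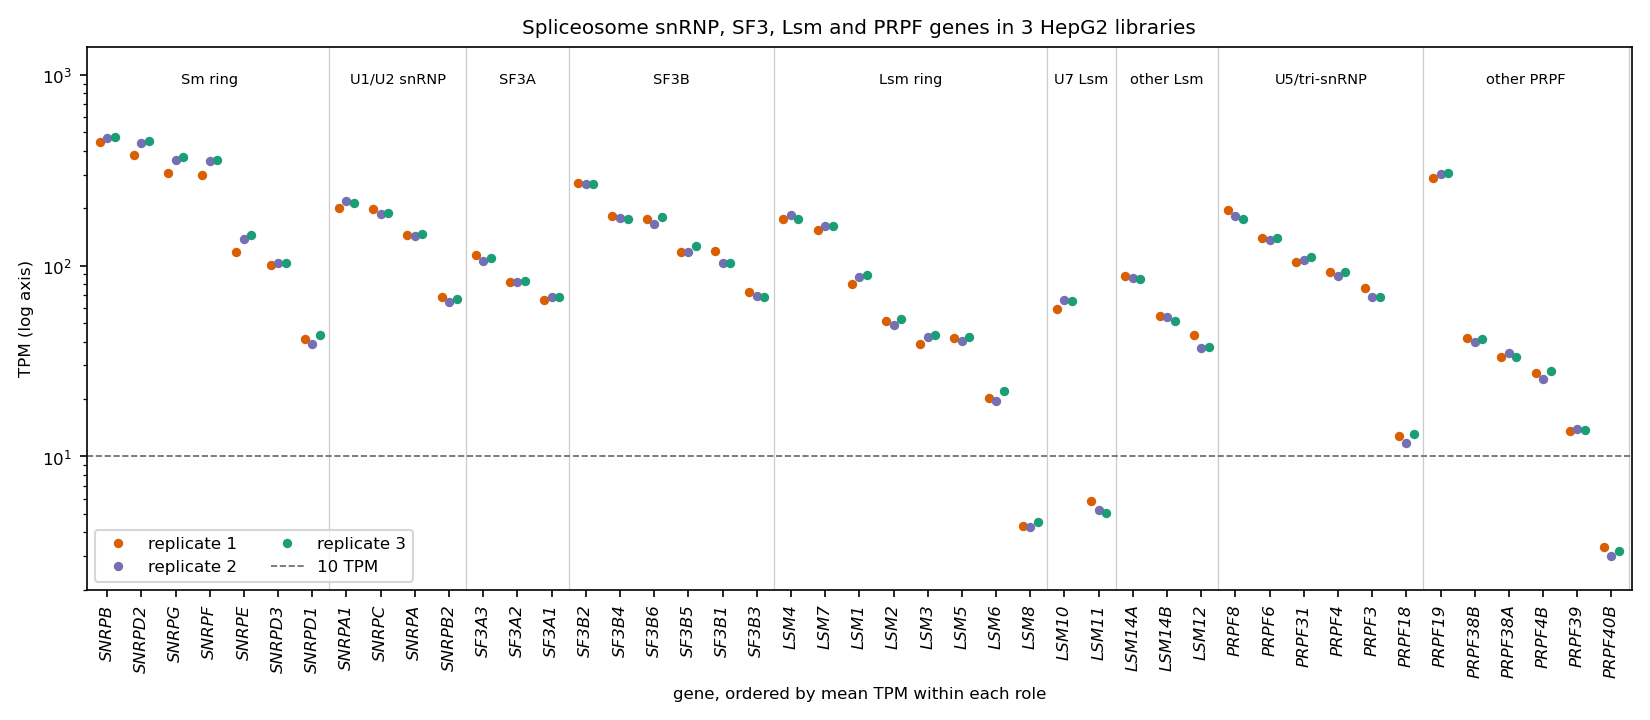
TPM on a log axis of 45 genes placed in a role, ordered by mean within each role, with 1 point per library (n = 3) and a dashed line at 10 TPM. SNRPB is highest with a mean of 459 TPM, and PRPF40B, LSM8 and LSM11 lie below the line in every library.

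The 4 members placed with U1 and U2 had a narrower span. SNRNP70, the U1-70K protein, is outside the rule and had a mean of 316 TPM. SNRPA1 encodes the A′ protein of U2 and SNRPB2 its B″ protein, which bind the U2 snRNA as a pair. SNRPA1 had 202, 219 and 213 TPM and SNRPB2 had 68.4, 64.5 and 66.8 TPM, and the levels did not overlap. The log2 ratio of SNRPA1 to SNRPB2, on the log2(TPM + 1) scale used for all ratios, was 1.65 ± 0.10 (SD, n = 3). SNRPA, the U1 paralog of SNRPB2, had 144, 143 and 147 TPM, a log2 ratio to SNRPB2 of 1.11 ± 0.04 (SD, n = 3). SNRPC, which encodes the C protein of U1 and helps U1 to hold the 5′ splice site, had a mean of 191 ± 5.69 TPM (SD, n = 3). GENCODE v44 lists 18 pseudogenes named after SNRPC.

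The SF3A and SF3B members lay in a middle band, from 67.6 to 270 TPM by mean. The 3 SF3A subunits were the most even of the 9 roles, with SF3A3 at 113, 105 and 110 TPM, SF3A2 at 81.8, 82.6 and 82.7 TPM and SF3A1 at 66.5, 68.1 and 68.3 TPM. All 3 are among the matches printed above. Their order was the same in every library, and the highest was 1.62 ± 0.0776 times the lowest (SD, n = 3). Of the 6 SF3B members, SF3B2 was highest with 272, 269 and 270 TPM. SF3B3 was the lowest of these members with 72.4, 68.9 and 68.9 TPM. PHF5A, a further SF3B subunit named outside the rule, was lower with 57.2, 56.0 and 61.1 TPM. SF3B1, the HEAT-repeat protein that holds the branch point helix and is often mutated in blood cancers (chr2:197391974-197435093, minus strand), had 120, 103 and 103 TPM. It was highest in replicate 1, and its range overlapped that of SF3B5, a small subunit with 118, 118 and 128 TPM. SF3B4 and SF3B6, a subunit that contacts the branch point region, had means of 179 and 174 TPM and overlapped as well. Set against the SF3 proteins, the mean log2 level of the Sm ring was higher by 0.61, 0.80 and 0.82 in replicates 1, 2 and 3, or 0.74 ± 0.11 (SD, n = 3), and by 0.49 when coverage was used in place of TPM. This is a difference between lists of genes and was not tested.

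The Lsm rings shared 6 subunits and differed in the seventh. Lsm1 to Lsm7 act in the cytoplasm in mRNA decapping and decay, and Lsm2 to Lsm8 bind the 3′ end of U6 in the nucleus. LSM1, the cytoplasmic subunit (chr8:38163321-38176730, minus strand), had 79.9, 86.9 and 89.0 TPM. LSM8, the nuclear one (chr7:118184164-118204035, plus strand), had 4.31, 4.28 and 4.56 TPM. By TPM, LSM8 was the lowest of the 8 ring genes in every library. By coverage LSM6 was lower, with a depth of 11.1, 12.4 and 11.3 against 27.0, 26.3 and 25.1 for LSM8. By TPM, LSM1 was 19.4 ± 0.885 times as high as LSM8 (SD, n = 3), with log2 ratios of 3.93, 4.06 and 4.02 in replicates 1, 2 and 3. The canonical transcript of LSM8 in GENCODE v44 has 12384 nt and that of LSM1 has 906 nt. TPM divides by transcript length, and the part of this difference in the ratio was not tested. LSM1 overlaps the row of BAG4 on the other strand over 143 bp, and BAG4 had 13.7 ± 1.10 TPM (SD, n = 3).

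Among the shared subunits, LSM4 was highest with 176, 185 and 176 TPM and LSM6 lowest with 20.2, 19.5 and 22.0 TPM. LSM7 had a mean of 159 TPM and LSM2 one of 50.7 TPM. LSM3 and LSM5 could not be separated, with means of 41.5 ± 2.30 and 41.4 ± 1.04 TPM (SD, n = 3). Within a library the span was 40.9 ± 2.29 times over the nuclear ring and 8.73 ± 0.735 times over the cytoplasmic ring (SD, n = 3).

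LSM10 and LSM11 replace SmD1 and SmD2 in the ring of the U7 snRNP, which trims the 3′ ends of histone mRNA. LSM10 had 59.6, 66.4 and 65.2 TPM and LSM11 had 5.81, 5.22 and 5.04 TPM, which left LSM11 among the lowest members. LSM14A and LSM14B, paralogs of cytoplasmic mRNP granules, are outside both rings. LSM14A had 87.9, 86.3 and 85.3 TPM and LSM14B had 54.4, 54.1 and 51.4 TPM, a log2 ratio of 0.69 ± 0.03 (SD, n = 3). LSM12 had 43.5, 37.2 and 37.5 TPM and was highest in replicate 1.

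PRPF8, the large scaffold of the catalytic centre (chr17:1650629-1684880, minus strand), led the 6 PRPF members of U5 and the tri-snRNP. It had 196, 182 and 176 TPM. SNRNP200, an snRNP protein named outside the rule, was higher with 228, 218 and 212 TPM. PRPF6, which bridges U5 to U4/U6, had a mean of 139 ± 1.93 TPM, and PRPF31, which binds U4/U6, had one of 108 ± 3.40 TPM (SD, n = 3). PRPF3 and PRPF4 bind each other on U4/U6. PRPF3 had 76.4, 68.7 and 68.6 TPM and PRPF4 had 92.7, 88.6 and 93.0 TPM. PRPF3 was the lower of the pair in each of the 3 libraries, with a log2 ratio of -0.36 ± 0.08 (SD, n = 3) by TPM and a mean of -2.06 by coverage. PRPF18, a factor of the second catalytic step, was lowest with 12.8, 11.7 and 13.1 TPM.

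PRPF19, a ubiquitin ligase that joins the spliceosome at activation, had 288, 302 and 307 TPM and was the only PRPF gene among the 5 highest members. PRPF40B, a U1-associated protein, had 3.34, 2.99 and 3.19 TPM and was the lowest gene above 0 among the members. PRPF38A, a spliceosome protein needed for activation, had 33.2, 34.7 and 33.3 TPM and its paralog PRPF38B had 41.6, 40.0 and 41.5 TPM, a log2 ratio of -0.28 ± 0.07 (SD, n = 3). PRPF4B, a kinase of the tri-snRNP, and PRPF39, a U1-associated protein, had means of 26.9 ± 1.37 and 13.7 ± 0.161 TPM (SD, n = 3). FKBP3, with 67.8 ± 4.95 TPM (SD, n = 3), overlaps PRPF39 over 310 bp on the other strand. The members next to the limit of 10 TPM were PRPF18, PRPF39 and LSM6 above it and LSM11, LSM8 and PRPF40B below it.

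**Figure D3:**
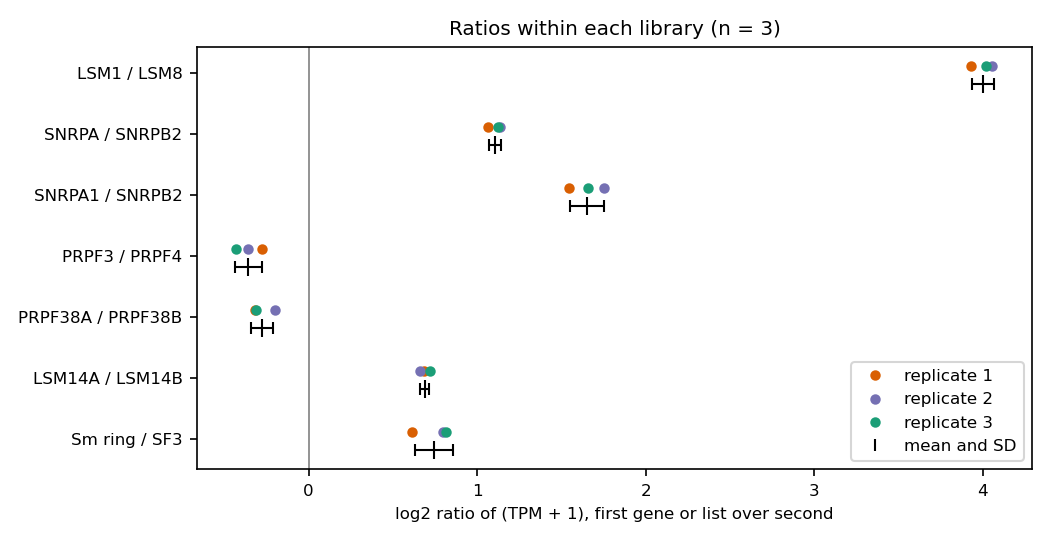
Log2 ratio of (TPM + 1) for 6 pairs of genes and for the Sm ring against the SF3 proteins, with 1 point per library and the mean with its SD (n = 3). Each ratio has the same sign in all 3 libraries, from a mean of -0.36 for PRPF3 over PRPF4 to 3.93, 4.06 and 4.02 for LSM1 over LSM8.

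The 6 pairs of partners or paralogs were compared within each library by exact permutation of signs (two-sided). Every pair kept its direction in 3 of 3 libraries and gave an exact p = 0.25, also after Benjamini-Hochberg adjustment over the 7 pairs tested. This is the smallest p that 3 libraries allow, so the test could not reach 0.05 for any pair. The SDs of the ratios, from 0.03 to 0.10 on the log2 scale, were smaller than the ratios themselves in all 6 pairs.

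Of the 37 neighbours in the order of mean TPM within a role, 6 overlapped in their ranges over the libraries. Among them were the 2 overlaps in the Sm ring, the 2 in SF3B and that of LSM3 with LSM5. The other 31 did not overlap and so kept their order in every library. The 2 overlapping neighbours in the Sm ring kept theirs too.

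How much the members varied between libraries, compared with other genes, depended on the scaling. Among the 43 averaging 10 TPM or more, the median range of log2(TPM + 1) was 0.09, against 0.13 over all 8419 rows with such a mean. With median-of-ratios scaling the order turned, with 0.14 for the members and 0.11 for all rows. Without replicate 1 the medians were 0.04 and 0.05. A range above 0.5 was found in 1 member, or 2.33% of those tested, against 1.41% of all rows, a share near the background.

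The direction of the small differences was not that of the other genes. Only 15 of 43 members, or 34.9%, were highest in replicate 1, where 62.5% of all rows were. Conversely, 18 members, or 41.9%, were lowest in replicate 1, against 19.5% of all rows. The members were not alone in this. Among the 41 other spliceosome and snRNP assembly genes described below, taken without a limit on their mean, 18 were highest and 15 lowest in replicate 1. In the Sm ring 6 of 7 genes were lowest in replicate 1, and the exception, SNRPD1, was lowest in replicate 2. The log2 level of SNRPE was lower by 0.30 in replicate 1 than in replicate 3, and SNRPG, SNRPF and SNRPD2 were lower by 0.27, 0.26 and 0.25. Those of SF3B1 and PRPF8 were higher by 0.22 and 0.15. With median-of-ratios scaling, which equalises the typical gene, 5 members were highest and 27 lowest in replicate 1, against 38.0% and 38.8% of all rows, and the same number of Sm genes, 6, were lowest.

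Transcript length moved with this difference in all genes. Of the rows averaging 10 TPM or more with a GENCODE v44 canonical transcript under 1000 nt, 34.1% were higher in replicate 1 than in replicate 3, rising to 58.6%, 76.8% and 89.4% from 1000, 2000 and 4000 nt. In the same length classes, 1 of 10, 2 of 9, 8 of 15 and 5 of 9 members were higher in replicate 1, a lower share than that of all rows in each class, although each class holds fewer than 20 members. Across genes, which are not independent replicates and share the libraries, Spearman's rho between length and the log2 difference of replicates 1 and 3 was 0.56 over 43 members and 0.44 over 8107 rows. Length also moved with the level itself, with a rho to mean TPM of -0.50 over the members and -0.30 over all rows. The part of length in these differences was not tested.

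**Figure D4:**
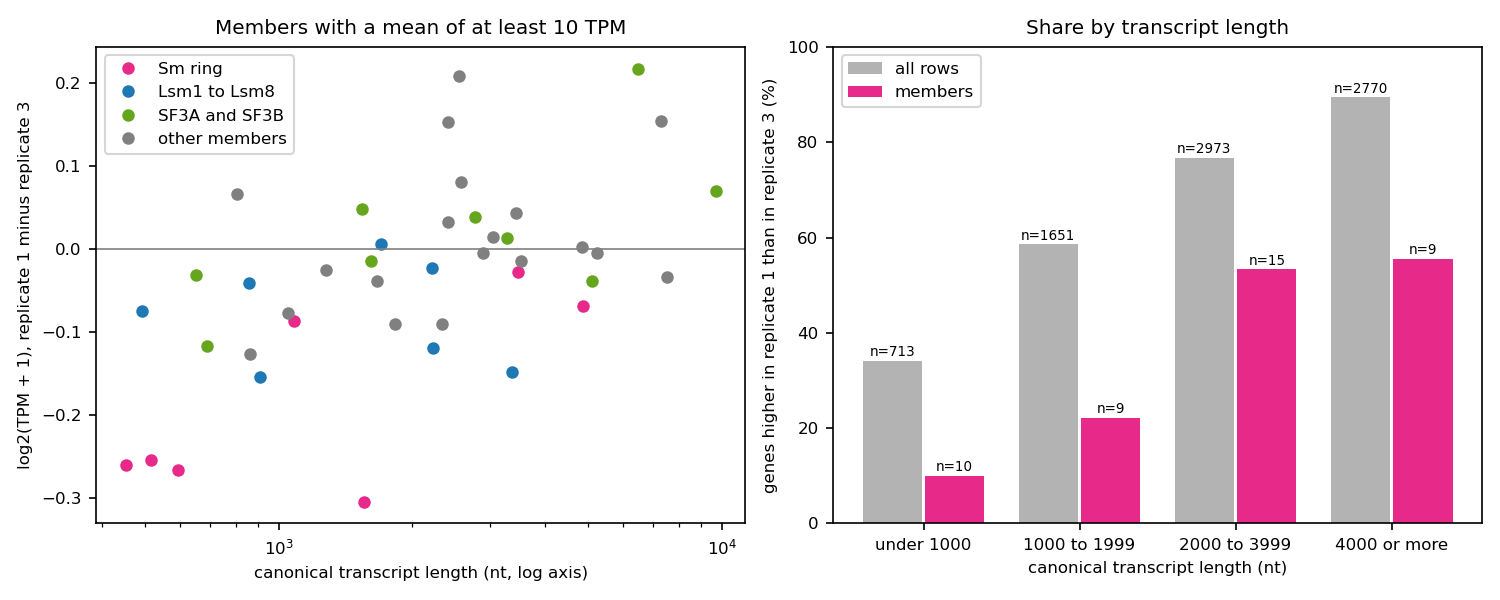
Left, difference of log2(TPM + 1) between replicates 1 and 3 against the canonical transcript length (log axis) for 42 members averaging 10 TPM or more, where 4 Sm genes lie at -0.25 or lower. Right, percent of genes higher in replicate 1 than in replicate 3 by length class, which rises from 34.1% to 89.4% over all rows (grey) and from 1 of 10 to 5 of 9 over the members (pink).

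Most other spliceosome and snRNP assembly genes passed the same limit. Of 41 such genes found in the tables, 39 had at least 10 TPM in every library, and their median was 67.1 TPM. Among 13 further snRNP proteins the mean ranged from 40.5 TPM for SART3, a recycling factor, to 316 ± 16.9 TPM (SD, n = 3) for SNRNP70, the U1-70K protein. The 6 partners of SF3 ranged from 58.1 TPM for PHF5A, a subunit of SF3B, to 234 TPM for U2AF2, which binds the polypyrimidine tract. The 8 proteins of the minor spliceosome, which removes the rare U12-type introns, had the lowest median, 19.1 TPM, and ranged from 13.1 TPM for RNPC3 to 155 TPM for SNRNP25. The 14 genes listed for snRNP assembly, among them those that methylate Sm proteins and load the Sm ring, had a median of 37.2 TPM. In that list GEMIN6 and GEMIN8, subunits of the SMN complex, were below 10 TPM in every library, with means of 7.99 and 6.58 TPM, while STRAP, another subunit, was highest with 227 TPM. SMN1 and SMN2, which are nearly identical, had means of 82.3 and 84.9 TPM, and reads shared between them could have been assigned to either. No gene of these lists had a range of log2(TPM + 1) above 0.5, with 0.37 as the highest.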

How the data were processed

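RNA-seq tables of 3 HepG2 libraries were analysed, grouped by their labels as replicates of 1 condition. The authors filtered reads with FastQC 0.11.8 and Trim Galore 0.6.2 and mapped them to GRCh38 with STAR 2.6.1a, and the submitters' processing notes name StringTie. Its version, annotation and strand setting are not given in the sources used here. The deposited coverage is a mean depth that is not scaled for library size, the deposited FPKM is scaled for length and library size, and the deposited TPM sums to a fixed total per library. No read counts are given, and the highest ratio of coverage to FPKM (13.3, 12.8 and 11.5) served as a relative measure of library depth.

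Tables were joined by gene and coordinates (43389 rows), and 39320 rows on the main chromosomes were kept. A further 16 rows for copies of 4 members on alternate references were all at 0. The deposited TPM was used unchanged, with a pseudocount of 1 on the log2 scale. The members and lists were chosen with earlier results of these data known. Members were named with values in every library for the highest and lowest of each role, the pairs and those next to 10 TPM, and 1 item that this rule covers is not reported here. Transcript lengths and pseudogenes came from GENCODE v44, and biotypes and start sites from RefSeq, matched by symbol. Members without a start site entry included LSM14A, LSM1, PRPF3, SF3B3, SNRPD1, PRPF4B, LSM6, PRPF39 and SNRPD2P2. The range calculation was tested on simulated data. Alternatives were other pseudocounts, limits and scalings, FPKM or coverage, and leaving out each replicate. Python 3.11.15, numpy 2.4.6, pandas 2.3.3, scipy 1.17.1 and matplotlib 3.10.9 were used.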

Additional observations from a re-analysis of the deposited data

How the results depend on the processing

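The 6 pair ratios kept their direction with a pseudocount of 0.1 TPM, with FPKM, with coverage and without any single replicate. Among them PRPF3 to PRPF4 changed most on the log2 scale, from -0.36 to -2.06 by coverage. The Sm ring exceeded the SF3 proteins by 0.49 by coverage, against 0.74 by TPM, and by 0.71 to 0.81 with a replicate left out. At a limit of 100 TPM, 21 members and 7.18% of protein-coding rows passed, against 43 and 40.4% at 10 TPM. The median member rose from 84.5 to 106 TPM without mitochondrially encoded genes, which raises every gene by nearly 1 factor, and to 91.4 TPM when only members at 10 TPM or more were kept. The number of members with a range above 0.5 was 0 without replicate 1, 1 without replicate 2 and 0 without replicate 3, and 0 by scaled coverage, an alternative chosen after the data were seen, as were the counts by scaling of members highest or lowest in replicate 1. Fewer libraries can lower a range but not raise it, and the cause of the other changes was not tested. No paired analysis was possible because only 1 condition was sequenced and replicate numbers pair no groups. The gene pairs above are compared within each library. Without read counts no counting error could be given. By coverage the depth was lowest for PRPF40B, LSM6 and PRPF18, at 6.25, 11.1 and 11.2 in replicate 1, apart from SNRPD2P2, which is listed at 0.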

Other observations

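SNRPN, the imprinted paralog of SNRPB that the rule leaves out, had 17.6, 19.1 and 8.32 TPM in replicates 1, 2 and 3, with a mean of 15.0 ± 5.82 TPM (SD, n = 3). It was lowest in replicate 3. Rows of other genes overlapped 16 members, and in 6 members such a row averaged 10 TPM or more. No share over all rows stands beside these counts, so they describe these members only. Besides LSM1 and PRPF39, the 6 included SNRPD3, which GUCD1 (54.9 TPM) overlaps over 286 bp on the other strand. SPPL2B (18.8 TPM) overlaps LSM7 and C19orf54 (15.4 TPM) overlaps SNRPA in the same way. The strand setting is not given, and the part of such reads in the levels was not tested. The ratio of coverage to FPKM, relative to the highest in replicate 1, was below 0.5 in 8 members, so that their order by coverage differs from that by TPM. This count also has no share over all rows beside it. It was lowest in LSM6, at 0.0880, followed by PRPF18 at 0.140, LSM12 at 0.185 and PRPF40B at 0.298. PRPF3, at 0.301, and SNRPG, at 0.373, were also among the 8, whereas PRPF4 was at 0.987. Results by coverage carry these ratios with them, among them the PRPF3 to PRPF4 ratio and the level of the Sm ring. The cause of the low ratios was not tested.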
